A study of Mus musculus with 2 samples.

Results

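The genes of Wnt signaling described here were chosen by name from a list of 58 genes. They comprise the Wnt ligands with the R-spondins that strengthen their signals, the receptors and the secreted antagonists. A last group holds targets that Wnt signals switch on and intracellular members of the pathway such as Axin1 and Tcf7l2. Probe sets were kept when the array annotation names one of these genes alone, which gave 62 of the 41345 probe sets of the array and 57 of the 58 genes. Tcf7 has no such probe set, so its RNA was not analysed here, and it enters only the search of promoter sequences below. RNA was measured in 2 samples of MC3T3-E1, a preosteoblastic line from mouse calvaria, each on 1 Affymetrix Mouse Gene 2.0 array. Clone P3 was isolated from cells stably transfected with a periostin cDNA that carries a myc epitope, and the control cells carry the empty vector. Both were grown in the same MEM-α medium with serum and without ascorbic acid, and the methods describe geneticin selection of stable clones. Clone P3 is 1 clone, so periostin and any other difference of that clone cannot be told apart. The values are log2 values made by RMA, which removes background, equalizes the spread of values between arrays and merges probes into 1 value per probe set. Differences are clone P3 minus control throughout. With 1 array per condition there is no replicate error and no test was made, so that all differences below are descriptions of these arrays.

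All genes were divided by mean level over both arrays into 4 bands of 5545 genes, from band 1 (lowest, up to 3.78 on the log2 scale) over band 2 (up to 5.04) and band 3 (up to 7.19) to band 4 (highest). Postn had 10.07 in clone P3 against 4.65 in control cells, a 43.0-fold difference in the direction of the labels. The labels name the line MC3T3-E1, which is preosteoblastic. Of 8 measured osteoblast markers, Col1a1, Col1a2, Sparc and Dlx5 lay in band 4, and Sp7, Alpl, Bglap and Ibsp lay in band 2. Dlx5 had 9.04 in clone P3 against 7.92 in the control, and the others of the 8 had no difference past 1.5-fold. Of 24 measured markers of macrophages, T cells, endothelium, adipocytes, chondrocytes and epithelium, 0 lay in band 4 and 21 lay in bands 1 and 2. Their values lay between 3.34 and 6.20 in clone P3 and between 3.23 and 6.20 in control cells. Past 1.5-fold were Fabp4, with 4.18 in clone P3 against 3.23 in the control, and Cd4, with 4.59 against 3.76. No other of them was past 1.5-fold in either direction. Many of the Wnt genes below have values in the same range, so differences of such size also occurred in markers of other cell types. Among the 968 genes with 2 probe sets of their own, the differences of the pair lay a median of 0.22 apart, and 11.9% of pairs lay apart by 0.58, which is 1.5-fold, or more. Probe sets bind with unlike strength, so no order of levels between genes is given.

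Wnt proteins are secreted lipid-modified ligands that bind a frizzled receptor together with the co-receptors Lrp5 or Lrp6. This protects β-catenin from degradation, and β-catenin then enters the nucleus and acts with factors of the Lef1 and Tcf family on genes such as Axin2, Nkd1 and Notum, several of which restrain the pathway in turn. R-spondins bind Lgr receptors and remove the ubiquitin ligases Rnf43 and Znrf3, which otherwise clear frizzled receptors from the cell surface. Other Wnt signals run through Ror and Ryk receptors and planar cell polarity proteins. In bone, canonical Wnt signaling is known to favour osteoblast formation, and loss of Lrp5 lowers bone mass while loss of sclerostin, the product of Sost, raises it.

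Most Wnt genes differed by less than 1.5-fold between clone P3 and control cells, and Rspo2 had the largest difference. Of the 57 measured genes, 1 was higher in clone P3 by at least 2-fold, a log2 difference of 1, which is 1.75% of them beside 0.6% of all 22180 genes named on the array. None was lower by at least 2-fold (0 of 57), beside 0.496% of all genes. At 1.5-fold, 1 was higher and 2 were lower. These are 1.75% and 3.51% of the members, beside 3.26% and 2.79% of all genes. Apart from Rspo2 these shares are close to those of the array as a whole, and counts this small say nothing particular about Wnt genes. The other 54 genes lay between the 1.5-fold bounds. The median difference of the 57 genes was 0.095 and their median size without sign was 0.21, beside 0.00 and 0.18 over all genes. A value in bulk RNA does not tell fewer cells that express a gene from less RNA per cell.

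**Figure D1:**
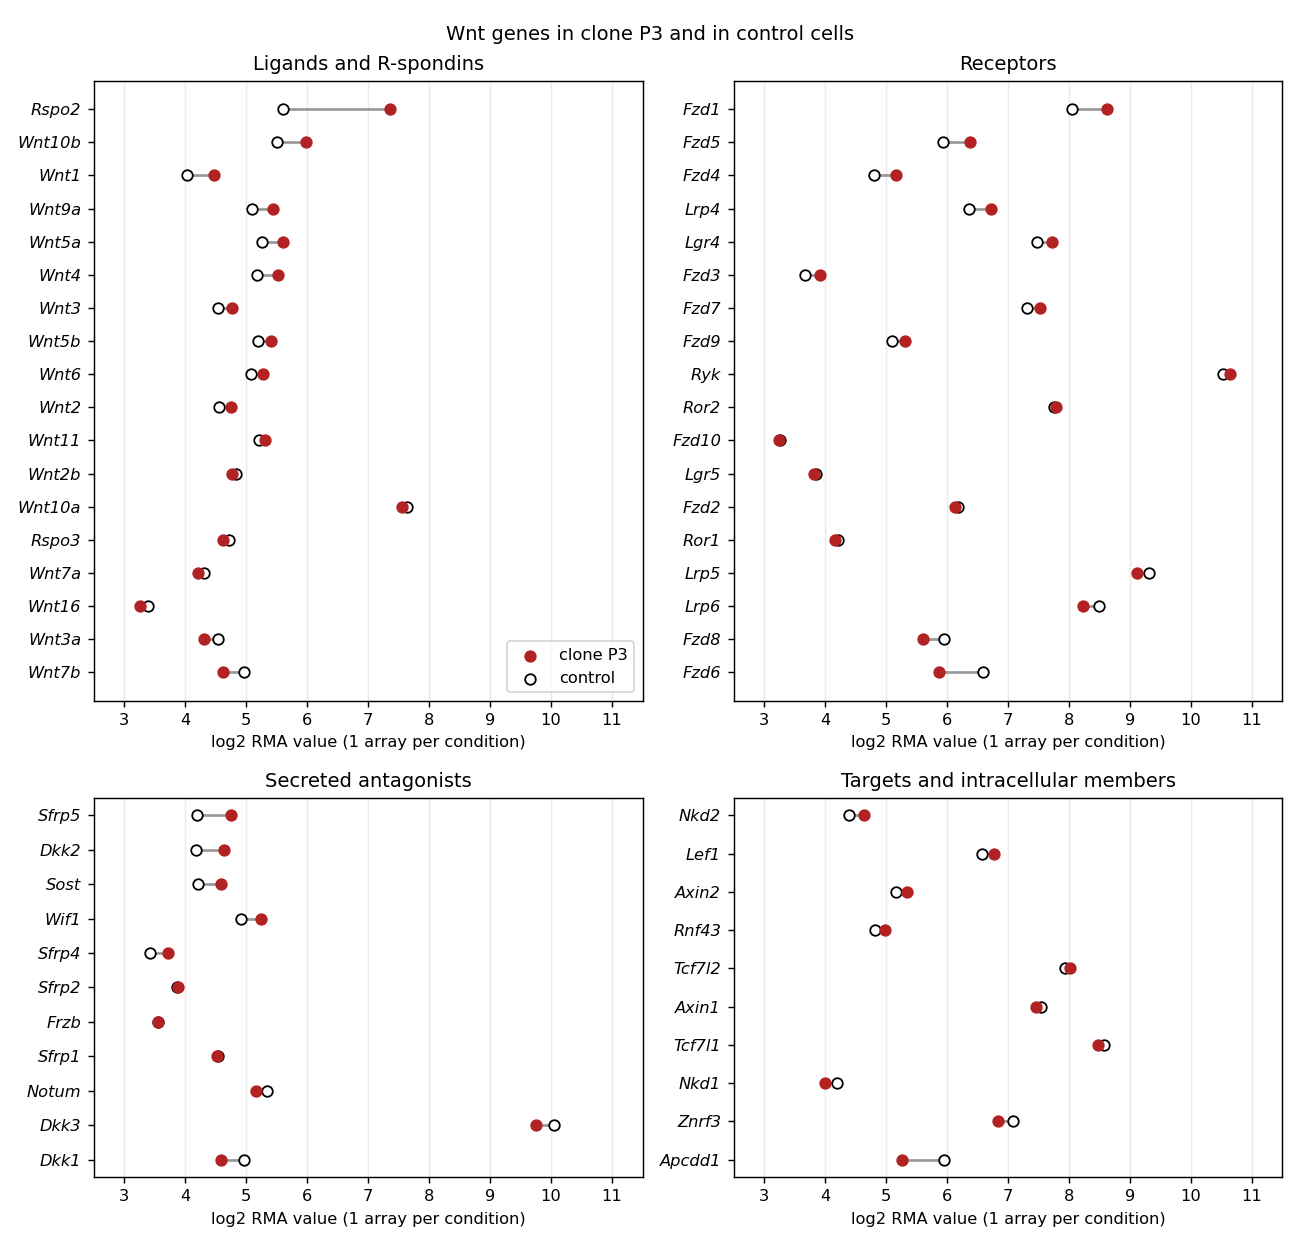
Values of the 57 measured Wnt genes by role on the log2 scale (x axis), with clone P3 as filled and control cells as open circles, 1 array each, joined by a line whose length is the difference. Rspo2 is farthest apart, at 7.35 in clone P3 against 5.60 in the control, and the circles of most other genes nearly touch.

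The members were spread over all 4 bands. By mean level, 4 of the 57 genes lay in band 1, 21 in band 2, 20 in band 3 and 12 in band 4. The bands serve to set members beside other genes of similar array value, and give no order of expression. In band 3 the 20 members had a median difference of 0.20 with 14 above 0, whereas all genes of that band had a median of -0.022 with 46.1% above 0. The median size without sign was 0.34 for these 20 members, beside 0.18 for all genes of band 3. In band 2 the 21 members had a median of 0.019, beside 0.088 for all genes of that band, and in band 4 the 12 members had -0.028, beside -0.048. The members were thus not shifted one way at every level.

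**Figure D2:**
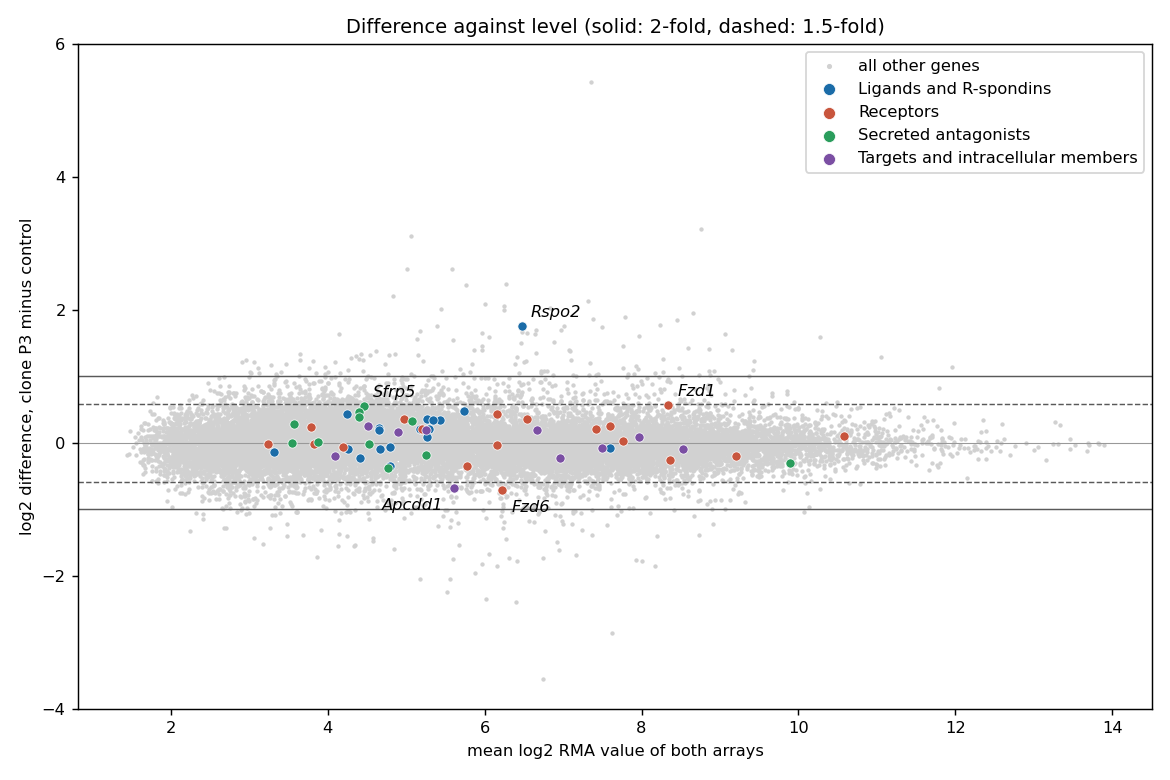
Log2 difference of clone P3 minus control (y axis) against the mean log2 value of both arrays (x axis), with 1 point per gene. Grey points are the other genes, coloured points the 57 Wnt genes by role, and solid and dashed lines mark 2-fold and 1.5-fold. Rspo2 lies at 1.76, Fzd6 at -0.71 and Apcdd1 at -0.68, and the other members lie within the dashed lines, Fzd1 at 0.57 and Sfrp5 at 0.55 just inside them.

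Among the ligands and R-spondins, Rspo2 was higher in clone P3 and the Wnt genes were not past either bound. Rspo2 encodes R-spondin 2, a secreted protein that strengthens Wnt signals through Lgr receptors. Its probe set (17316793) had 7.35 in clone P3 against 5.60 in the control, a difference of 1.76 or 3.38-fold, the 23rd highest of all 22180 genes. In its band of mean level, band 3, 0.992% of genes were higher by at least 2-fold. The related Rspo3 had 4.62 in clone P3 against 4.71 in the control. Of the R-spondins outside the list, Rspo1 had 5.43 in clone P3 against 5.32 in control cells, and Rspo4 had 4.61 against 4.80. Rspo2 was thus the only 1 of the 4 R-spondin genes past 1.5-fold, and the other differences had sizes of 0.18 or less.

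All 16 measured Wnt genes lay between -0.34 and 0.48, with 10 above 0 and a median difference of 0.20. The 18 ligand and R-spondin genes together also had a median of 0.20, with 11 above 0, beside 0.00 and 48.2% above 0 for all genes. In band 2, which holds 8 of the 18, all genes had a median of 0.088 with 59.7% above 0. In band 3, which holds another 8, all genes had a median of -0.022 with 46.1% above 0. The largest difference of a Wnt gene was that of Wnt10b, a canonical ligand known to promote osteoblast formation over fat in mice, with 5.97 in clone P3 against 5.50 in the control. Wnt1, its direct neighbour on chromosome 15, had 4.46 in clone P3 against 4.03 in the control. Both genes of this pair lay on the same side, with differences of 0.48 and 0.44. For the neighbours Wnt6 and Wnt10a on chromosome 1 the differences were 0.20 and -0.077, and for Wnt3 and Wnt9b, which is outside the list, on chromosome 11 they were 0.22 and -0.068, so that neighbouring Wnt genes did not share a sign there.

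Wnt5a, the main non-canonical ligand of the osteoblast lineage, had 5.60 in clone P3 against 5.25 in the control, a difference of 0.35. Wnt9a and Wnt4 had similar differences, at 0.36 and 0.34. Wnt16, a ligand that maintains cortical bone in mice, had 3.25 in clone P3 against 3.39 in the control, and its mean lay in band 1. Wnt10a was the only ligand in band 4, with 7.55 in clone P3 against 7.63 in the control. The lowest differences were those of Wnt7b, with 4.63 in clone P3 against 4.97 in the control, and of Wnt3a, with 4.31 in clone P3 against 4.53 in the control. The remaining Wnt genes had differences between -0.098 and 0.22.

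The receptors differed in both directions, with Fzd6 past 1.5-fold. The 18 receptor genes had a median difference of 0.063, with 10 above 0. Fzd6, a frizzled receptor best known for planar polarity and for restraining canonical signals, had 5.87 in clone P3 against 6.58 in the control (probe set 17311179). This is a difference of -0.71 or 1.64-fold, the 346th lowest of all genes, and 3.5% of genes in band 3, to which it belongs, were lower by at least 1.5-fold. At the other end, Fzd1, a canonical frizzled receptor, had 8.63 in clone P3 against 8.06 in the control, a difference of 0.57 or 1.49-fold. Fzd1 crossed the 1.5-fold bound when the columns were quantile normalized again (0.61) or a trend on level was removed (0.62). It lies on chromosome 5, whose 1261 measured genes had a median difference of 0.16, and the part of that shift in the value of Fzd1 was not tested. Fzd9 and Fzd10, on the same chromosome, had differences of 0.21 and -0.013.

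The other frizzled genes lay between these 2 ends. Fzd5 had 6.37 in clone P3 against 5.94 in the control, and Fzd4, the receptor of norrin as well as of Wnt proteins, had 5.16 in clone P3 against 4.80 in the control. Fzd8 had 5.60 in clone P3 against 5.95 in the control, a difference of -0.35. Fzd2, Fzd3 and Fzd7 had differences of -0.037, 0.24 and 0.21. Of the 10 frizzled genes, 6 were above 0, with a median of 0.21.

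The co-receptors differed little. Lrp5 had 9.11 in clone P3 against 9.31 in the control, a difference of -0.20. Lrp6 has a pair of probe sets, of which one had 10.19 in clone P3 against 10.26 in the control, and the other 6.28 in clone P3 against 6.73 in the control. Their differences, -0.074 and -0.45, have the same sign and unlike sizes. Lrp4, which binds sclerostin and helps it to inhibit signaling, had 6.72 in clone P3 against 6.36 in the control, a difference of 0.35. Ryk had 10.63 in clone P3 against 10.53 in the control, a difference of 0.10. Ror1 and Ror2, the receptors of Wnt5a, had differences of -0.055 and 0.021. Lgr4, through which R-spondins act, had 7.73 in clone P3 against 7.47 in the control, a difference of 0.25 and a mean in band 4. Lgr5 had differences of -0.086 and 0.038 at its probe sets, with means of 4.26 and 3.40. Neither Lgr gene was past 1.5-fold.

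The secreted antagonists showed no shared direction. The 11 genes had a median difference of 0.019, with 6 above 0, 4 below 0 and Frzb at 3.55 on both arrays, and 0 passed 1.5-fold in either direction. Their differences ranged from -0.38 for Dkk1 to 0.55 for Sfrp5. Dkk1, which blocks Lrp5 and Lrp6, had 4.58 in clone P3 against 4.96 in the control, whereas its relative Dkk2 had 4.63 in clone P3 against 4.17 in the control. Dkk3, a divergent member of the family, was the only antagonist in band 4, with 9.75 in clone P3 against 10.04 in the control.

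Sfrp5, a frizzled-related protein that binds Wnt ligands, had 4.74 in clone P3 against 4.19 in the control, a difference of 0.55 or 1.47-fold. Sfrp1 and Sfrp4 had differences of -0.016 and 0.29, and the probe sets of Sfrp2 had -0.22 and 0.26, opposite in sign. Sost had 4.59 in clone P3 against 4.20 in the control. Its product is known from osteocytes, and its mean of 4.40 lay in band 2. Wif1, another Wnt-binding inhibitor, had 5.25 in clone P3 against 4.92 in the control. Notum, an enzyme that removes the lipid of Wnt proteins and is itself a target, had 5.09 and 5.25 at its probe sets in clone P3 and 4.90 and 5.79 in the control. The differences of 0.18 and -0.54 do not share a sign, and the gap of 0.72 between them is the widest of the 5 members with 2 probe sets.

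Of the targets and intracellular members, Apcdd1 was lower by at least 1.5-fold and the others lay between -0.23 and 0.25. The 10 measured genes had a median difference of 0.0045, with 5 above 0. Apcdd1 encodes a membrane protein that binds Wnt ligands and Lrp5 and inhibits the pathway. Its probe set (17351196) had 5.26 in clone P3 against 5.95 in the control, a difference of -0.68 or 1.61-fold, the 392nd lowest of all genes. Axin2, the most widely used readout of canonical signaling, had 5.38 and 5.31 at its probe sets in clone P3 and 5.43 and 4.89 in the control. The differences of -0.047 and 0.42 give a mean of 0.19, so the readout differed by less than its own probe sets did. Lef1, both a factor and a target of the pathway, had 6.76 in clone P3 against 6.57 in the control.

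The feedback genes did not share a direction either. Nkd1 and Nkd2, which inhibit dishevelled, had differences of -0.20 and 0.25, and the values of Nkd2 were 4.64 in clone P3 against 4.39 in the control. Znrf3 had 6.84 in clone P3 against 7.08 in the control, and its partner Rnf43 had 4.98 in clone P3 against 4.81 in the control. These ligases are the ones that R-spondins remove from the membrane. Over Axin2, Nkd1, Nkd2, Notum, Znrf3, Rnf43 and Apcdd1 the median difference was -0.18, with 3 of 7 above 0. All genes had a median of 0.00 with 48.2% above 0. The median of the 7 genes is the value of Notum, whose probe sets do not share a sign. Tcf7l1, Tcf7l2 and Axin1, which encode nuclear factors and the scaffold of the destruction complex, had means in band 4. Tcf7l1 had 8.48 in clone P3 against 8.57 in the control, and Tcf7l2 and Axin1 had differences of 0.086 and -0.077.

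Promoters were searched for letters that factors of the Lef1 and Tcf family are known to bind, CTTTGAT or CTTTGAA on either strand, in windows that start 250 bases before and end 50 bases after the start of transcription. Such a window was found for 38 of the 58 genes, and Rspo2, Fzd6 and Apcdd1 were not among them. The letters occurred in 3 of the 47 windows of Wnt genes, or 6.38%, beside 8.65% of all 32851 windows. By gene they occurred in 3 of 38, or 7.89%, beside 9.88% of all 27025 genes with a window. They occurred in 2 of 16 windows of ligands and 1 of 7 of antagonists, and in 0 of 10 windows of receptors and 0 of 14 of targets. A gene can have several windows, such as Wnt11 with 2 and Wnt5b with 3, of which 1 each holds the letters. The 3 windows that hold them are given for Dkk1 (chr19:30549497-30549746, minus strand), Wnt11 (chr7:98834862-98835111, plus strand) and Wnt5b (chr6:119449387-119449636, minus strand) of GRCm38.p6 from RefSeq, as the 250 bases before the start, 5′ to 3′ on the gene's strand, because they show where the letters lie. Capitals mark the letters, which begin 117, 51 and 71 bases before the start, and in Wnt11 they are on the opposite strand and read ATCAAAG.
Dkk1: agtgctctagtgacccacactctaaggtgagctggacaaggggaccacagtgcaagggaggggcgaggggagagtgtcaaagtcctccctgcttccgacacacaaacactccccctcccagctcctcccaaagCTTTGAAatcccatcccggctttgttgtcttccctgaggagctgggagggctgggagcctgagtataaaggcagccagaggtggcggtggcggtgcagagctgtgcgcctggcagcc
Wnt11: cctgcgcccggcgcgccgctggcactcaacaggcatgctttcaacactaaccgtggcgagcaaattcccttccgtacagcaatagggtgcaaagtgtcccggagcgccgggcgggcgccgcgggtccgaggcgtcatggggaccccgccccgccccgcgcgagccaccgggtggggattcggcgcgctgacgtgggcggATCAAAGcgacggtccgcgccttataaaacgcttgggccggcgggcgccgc
Wnt5b: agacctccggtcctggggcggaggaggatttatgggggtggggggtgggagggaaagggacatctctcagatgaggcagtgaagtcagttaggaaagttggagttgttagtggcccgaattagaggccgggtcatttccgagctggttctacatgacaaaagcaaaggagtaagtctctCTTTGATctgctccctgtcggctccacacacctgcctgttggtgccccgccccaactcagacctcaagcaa
Of these genes Dkk1 had the lowest difference of the antagonists, -0.38, and Wnt11 and Wnt5b had 0.095 and 0.21. The Wnt11 value was 5.31 in clone P3 against 5.21 in the control, and that of Wnt5b 5.40 in clone P3 against 5.19 in the control. A match of letters describes the sequence only.

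The rest of the pathway was described with 4 further lists of 78 genes, of which 74 were measured. Of these 1 was higher by at least 2-fold, which is 1.35% beside 0.6% of all genes, and 0 were lower, beside 0.496%. At 1.5-fold 4 were higher and 2 were lower, which is 5.41% and 2.70% beside 3.26% and 2.79% of all genes. With counts this small the shares are near those of the array, and the median was 0.014. In the list of secretion and extracellular control, 1 of 16 genes was past 1.5-fold, Cthrc1, which encodes a secreted protein that binds frizzled receptors and Ror2. It had 5.45 in clone P3 against 4.82 in the control, a difference of 0.63. Porcn and Wls, which attach the lipid to Wnt proteins and carry them to the surface, had differences of 0.14 and -0.02, and the list had a median of 0.084.

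In the list of intracellular signaling, Tnks was higher and Tle1 lower by at least 1.5-fold among 23 measured genes, and the median was -0.076. Tnks, a tankyrase that destabilizes axin, had 8.54 in clone P3 against 7.89 in the control, with differences of 0.62 and 0.70 at its probe sets. Tnks lies on chromosome 8, where 7.63% of 1036 measured genes were higher by at least 1.5-fold, beside 3.26% of all genes. The part of this in the value of Tnks was not tested. Its paralog Tnks2 had 9.92 in clone P3 against 10.38 in the control, a difference of -0.47. Tle1, a corepressor of Tcf factors, had a difference of -0.60, with -0.83 and -0.37 at its probe sets. Ctnnb1, the gene of β-catenin, had 9.62 in clone P3 against 9.66 in the control.

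Of 16 genes of planar cell polarity and other non-canonical signaling, Rhou was the only one past 1.5-fold. This gene, known to be induced by Wnt1, had 8.40 in clone P3 against 9.39 in the control, a difference of -0.995, just short of 2-fold. The median of that list was 0.047. Of 19 measured further targets, 1 was higher by at least 2-fold, Tnfrsf11b, the gene of osteoprotegerin, a decoy receptor that restrains osteoclast formation. It had 5.32 in clone P3 against 4.14 in the control, a difference of 1.18 or 2.27-fold. Its mean of 4.73 lay in band 2, where 0.433% of genes were higher by at least 2-fold. Ccn4, known as a Wnt1-inducible gene, had 7.52 in clone P3 against 6.59 in the control, a difference of 0.92. The widely used targets Myc and Ccnd1 had differences of -0.19 and -0.090, and the median of the list was 0.0097, so these members of the list did not move together.

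**Figure D3:**
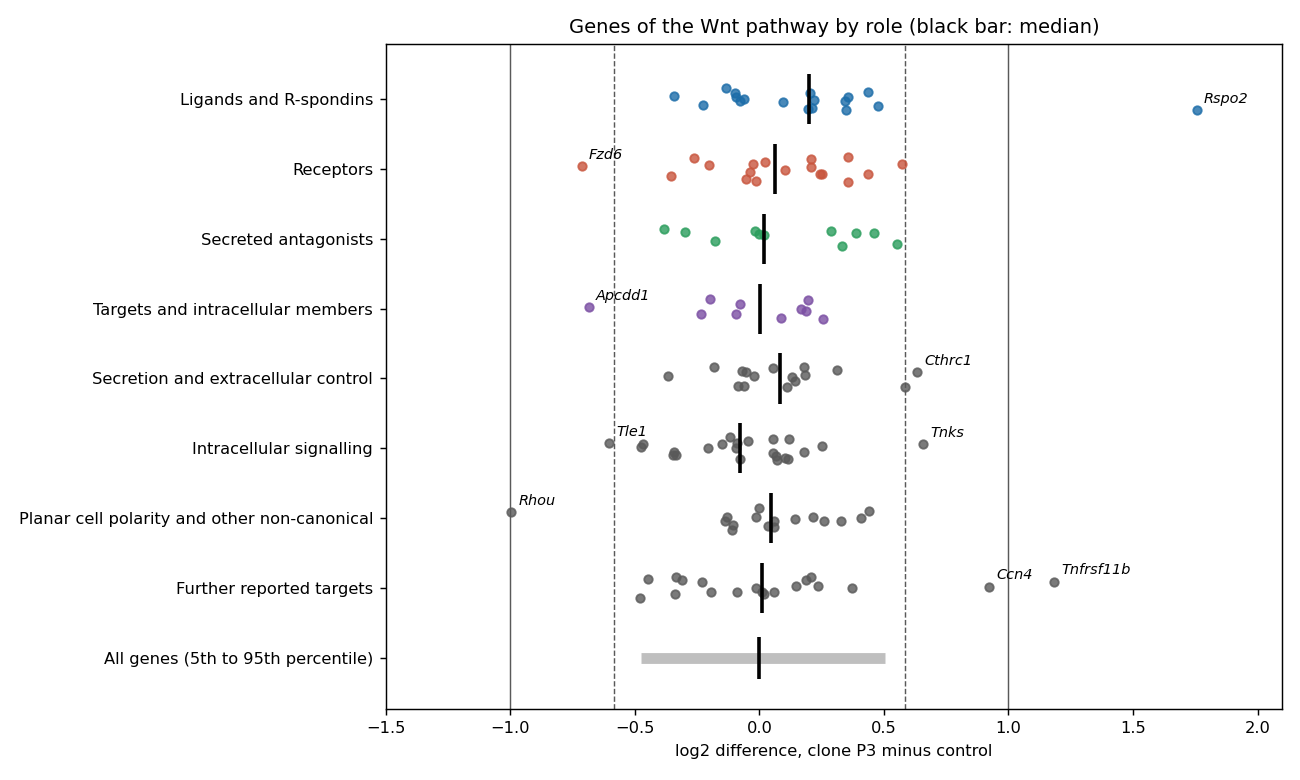
Log2 difference of clone P3 minus control (x axis) for each measured gene of the Wnt roles (colours) and of the 4 further lists (dark grey), with the list median as a black bar. The grey bar spans the 5th to 95th percentiles of all genes, -0.48 to 0.51, and genes past 1.5-fold (dashed lines) are named, with 2-fold as solid lines. The medians lie between -0.076 and 0.20, and Rspo2 at 1.76 and Tnfrsf11b at 1.18 are the only points past 2-fold.

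The genes around the members past 1.5-fold had differences of both signs. Of the 5 measured genes on each side of Rspo2 on chromosome 15, in the gene order of GRCm38.p6, 4 were above 0 and the median was -0.11. The direct neighbour Angpt1, which encodes the ligand of the receptor Tek, had 4.79 in clone P3 against 5.70 in the control as the mean of its probe sets. This is a difference of -0.91 beside 1.76 for Rspo2. The paper lists a probe set of Angpt1 as lower by more than 2-fold, so its probe sets had differences of unlike size. Tmem74, the 4th measured gene on the other side, had 5.51 in clone P3 against 4.78 in the control, a difference of 0.73 with the sign of Rspo2. The 10 neighbours of Fzd6, also on chromosome 15, had a median of 0.059. Next to Fzd6 lies Cthrc1, so that 2 adjacent genes of the pathway had differences of -0.71 and 0.63. The 10 neighbours of Apcdd1 on chromosome 18 had a median of 0.092 and ranged from -0.75 to 0.37. The lowest was Spink13, 2 measured genes away, with 2.13 in clone P3 against 2.89 in the control, which has the sign of Apcdd1. The median of the 839 measured genes of chromosome 15 was 0.0044, and that of the 518 genes of chromosome 18 was 0.013.

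**Figure D4:**
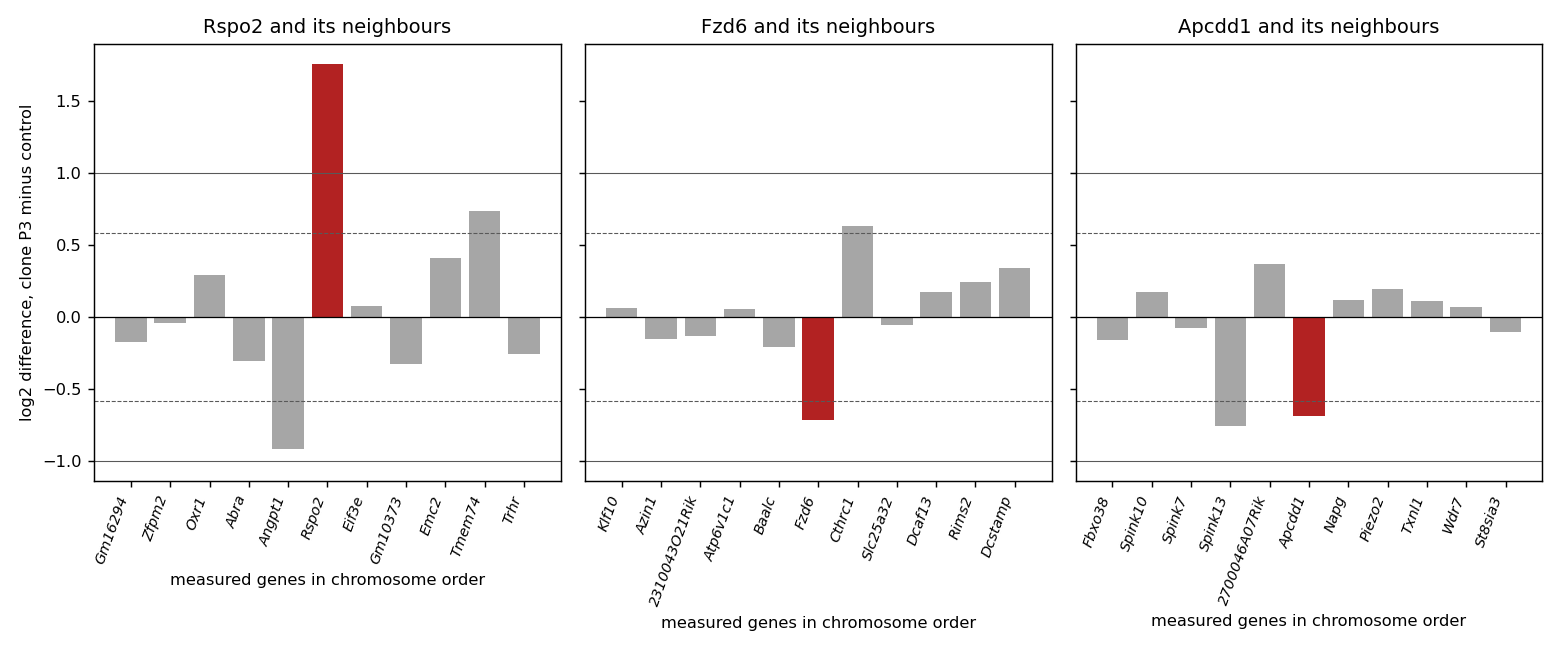
Log2 difference of clone P3 minus control (bars, y axis) for Rspo2, Fzd6 and Apcdd1 (red) and the 5 measured genes on each side in chromosome order (grey), with lines at 1.5-fold (dashed) and 2-fold (solid). Rspo2 stands at 1.76 beside Angpt1 at -0.91, the mean of its probe sets, and Fzd6 at -0.71 beside Cthrc1 at 0.63. Tmem74 at 0.73 and Spink13 at -0.75 have the sign of Rspo2 and Apcdd1.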

How the data were processed

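RNA of clone P3 and of control cells was hybridized to 1 Affymetrix Mouse Gene 2.0 array each. The log2 values deposited by the authors had been through RMA, that is background correction, quantile normalization and a summary per probe set. The submitters' notes list R 2.15.0 and affy 1.36.0, and no annotation version was found in those sources. No counts lie behind the values, so precision is limited by having 1 array per condition.

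The array has 41345 probe sets, of which 23521 are annotated with 1 gene, 1820 with several and 16004 are not listed in the annotation table used here. Those with 1 gene correspond to 22180 genes, and 23328 of these probe sets were matched to a RefSeq table of GRCm38.p6 for current symbols. A gene's value is the mean of its probe sets, and its difference is clone P3 minus control. Genes were counted at log2 differences of 1 (2-fold) and 0.58 (1.5-fold). No test was made, since each condition has 1 array. The members and lists were chosen with earlier results of these data known. The rule for named genes gives both array values for members past 1.5-fold at the gene or any probe set, and for those of each role with the highest mean level and the highest and lowest difference. Of the other pathway genes it takes those past 2-fold or, failing that, the largest difference of a list. Ccn4, Tle1 and the named neighbours were chosen after their values were seen, as were the other genes given to describe a role. The alternatives were median centring, quantile normalization, removal of a lowess trend (0.3 of the data per fit), a minimum mean level (the median, or 6) and the brightest probe set of a gene. The steps were tested on simulated data. Promoters were read from a RefSeq table, which holds 38 of the 58 members. Computations ran in Python 3.11.15 with pandas 2.3.3, statsmodels 0.14.6 and numpy 2.4.6, and plots in matplotlib 3.10.9.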

Additional observations from a re-analysis of the deposited data

How the results depend on the processing

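The counts of Wnt genes past 2-fold, 1 higher and 0 lower, were the same under all 6 alternatives. Under these, 0.482% to 0.845% of all genes were higher and 0.469% to 0.622% lower by at least 2-fold. With a mean level of at least 6, Rspo2 is kept only through its 7.35 in clone P3, as the control had 5.60. That setting is thus no separate check of Rspo2. Rspo2 ranged from 1.70 with each column centred on its median to 1.79 with the trend on level removed. With quantile normalization and with the trend removed, 2 genes were higher by at least 1.5-fold in place of 1, since Fzd1 then had 0.61 and 0.62. These 2 of 57 stand beside 3.16% and 3.09% of all genes under the same settings. With a mean level of at least 6, which left 19 of the 57 genes and not Apcdd1, 1 was lower by at least 1.5-fold in place of 2. This gene, Fzd6, is kept there only through its 6.58 in the control, as clone P3 had 5.87. Of all genes at that level, 2.56% were lower by at least 1.5-fold. The median of the antagonists, 0.019, was -0.034 with median centring, -0.0047 with quantile normalization, -0.013 with the trend removed and 0.00 with the brightest probe set. It was -0.24 over the 4 genes at or above the median level and -0.30 for the 1 gene at 6 or more. The median of the targets and intracellular members, 0.0045, was -0.048 with median centring, -0.062 with the brightest probe set and -0.077 over the 5 genes at 6 or more. So neither of these medians has a settled sign. The median of the ligands, 0.20, was 0.15 with median centring and with quantile normalization, and 0.14 with the trend removed. It was 0.21 over the 14 genes at or above the median level. Over the 2 genes at 6 or more, Rspo2 and Wnt10a, it was 0.84, where Rspo2 is kept through its clone P3 value. The median of the receptors stayed between 0.01 and 0.16. The median of all genes, 0.00, was -0.053 with median centring and with a level of at least 6, and nearer to 0 under the other alternatives. No paired analysis was possible because each condition has 1 array, and no replicate could be left out.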

Other observations

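Of the 131 measured genes of the Wnt roles and the 4 further lists, 12 lie on chromosome 15. Among these 12 genes were 4 of the 5 genes that were higher by at least 1.5-fold in all, namely Rspo2 (1.76), Tnfrsf11b (1.18), Ccn4 (0.92) and Cthrc1 (0.63), and 1 that was lower, Fzd6 (-0.71). Of the chromosome's 839 measured genes, 32 or 3.81% were higher by at least 1.5-fold, beside 3.26% of all genes, and the median of the 839 genes was 0.0044. Of the 12 pathway genes there, 9 were above 0, some by little (Csnk1e 0.057, Celsr1 0.14), beside 48.2% of all genes. This was noticed after the values were seen and was not tested. The tankyrase genes Tnks and Tnks2, which encode related enzymes, lay on opposite sides at 0.66 and -0.47. Tnks lies on chromosome 8, where 7.63% of genes were higher by at least 1.5-fold.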
